A study of Mus musculus with 4 samples.

Results

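The mouse loci of Kit, Bcl2 and Cdk6 were examined in the peak lists of 2 CUT&RUN libraries from MEL cells. These genes were reported in earlier work as targets of the transcription factor MYB. A peak was taken as a member when its centre lay in 1 of 3 mm9 intervals named for the genes: chr5:75800000-76100000 for Kit (300 kb), chr1:108400000-108660000 for Bcl2 (260 kb) and chr5:3290000-3600000 for Cdk6 (310 kb). This gave 7 member peaks of 10737 in all, 4 of the 7327 peaks of the anti-GFP list and 3 of the 3410 peaks of the anti-Myb list. The intervals are no gene models: an mm9 annotation was not used here, so no peak is placed at a promoter, exon or intron, and a peak inside an interval is not assigned to the gene.

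MEL is a mouse erythroleukemia line, cells of the red blood lineage that grow as immature precursors. CUT&RUN, in which a nuclease tethered to an antibody cuts out the DNA beside the bound protein, was run on 4 libraries, 1 per group. The anti-GFP library analysed here came from MEL cells labelled Myb-GFP, read here as cells whose Myb carries a GFP tag, and the anti-Myb library from MEL cells without that label. The other 2 groups are anti-GFP in cells without the label and a library titled MEL_IgRab, grouped here as without antibody. Their data were not analysed here, so no control level can be set beside a peak. All cells were kept in the same serum-containing medium, and no treatment is given. The labels do not say how the Myb-GFP cells were made or whether they are 1 clone. Each list gave 1 score and 1 width (337 bp for anti-GFP, 313 bp for anti-Myb) to every peak, so a peak is present or absent, and its height and the read depth are unknown. With 1 library per antibody there is no replicate error and no test between the lists, and no p-value was computed.

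MYB is a DNA-binding protein that keeps immature blood cells dividing and falls as red cells mature. It binds a short core motif, AACNG, and acts from promoters and from distal enhancers. Kit encodes the receptor tyrosine kinase for stem cell factor, on which early erythroid progenitors depend. Bcl2 encodes a mitochondrial membrane protein that blocks apoptosis. Cdk6 encodes a kinase that, with a D-type cyclin, phosphorylates the retinoblastoma protein and lets cells pass through G1. All 3 have been described as MYB targets in blood cells or leukemia lines.

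The reference sequence just upstream of each gene's start is shown because it is the stretch of each gene that can be read here letter by letter. It comes from the RefSeq promoter table, which held all 3 genes, on the build GRCm38.p6, so its coordinates cannot be compared with the mm9 peaks and no match is tied to a peak. Each run gives the 250 bases before an annotated start, 5′ to 3′ on the gene's strand. Capitals mark matches to the MYB core AACNG on either strand. Kit (chr5:75574737-75574986, plus strand; a second annotated start lies a few bases on), Bcl2 (chr1:106714291-106714540, minus strand) and Cdk6 (chr5:3343643-3343892, plus strand) read as follows.
Kit: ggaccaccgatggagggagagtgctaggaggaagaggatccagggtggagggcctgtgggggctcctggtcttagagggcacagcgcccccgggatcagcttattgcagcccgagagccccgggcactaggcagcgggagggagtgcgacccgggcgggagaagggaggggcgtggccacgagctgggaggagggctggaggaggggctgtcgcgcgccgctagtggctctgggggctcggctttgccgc
Bcl2: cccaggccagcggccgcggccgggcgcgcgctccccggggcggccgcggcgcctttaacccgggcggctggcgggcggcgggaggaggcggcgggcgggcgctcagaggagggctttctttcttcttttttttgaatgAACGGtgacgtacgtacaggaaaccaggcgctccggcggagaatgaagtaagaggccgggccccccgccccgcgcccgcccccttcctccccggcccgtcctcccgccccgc
Cdk6: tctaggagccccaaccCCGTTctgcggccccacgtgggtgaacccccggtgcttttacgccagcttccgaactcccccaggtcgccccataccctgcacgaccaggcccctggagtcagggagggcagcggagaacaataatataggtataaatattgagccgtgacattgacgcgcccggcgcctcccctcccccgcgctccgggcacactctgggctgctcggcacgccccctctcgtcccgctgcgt

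The Bcl2 stretch held 1 match, AACGG on the gene's strand, whose first base lay 112 bases before the start. The Cdk6 stretch held 1 match on the other strand, where the printed letters are CCGTT, from 234 bases before the start. The Kit stretch held 0. Of the 32851 promoters in the table, 74.2% held at least 1 AACNG match in the same 250 bases. The narrower motifs AACGG or AACTG, which are contained in AACNG, were found in 48.6% of all promoters. The GATA motif of erythroid genes (AGATAA or AGATAG or TGATAA or TGATAG, both strands) was found in 0 of the 3 and in 26.5% of all promoters. The 3 stretches were rich in G and C, at 70.8% for Kit, 74.8% for Bcl2 and 66.0% for Cdk6, against a median of 52.4% over all promoters.

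The Kit interval held 1 anti-GFP and 1 anti-Myb peak, which lay side by side. The Cdk6 interval held 1 anti-GFP and 2 anti-Myb peaks, of which 1 adjoined the anti-GFP peak. The Bcl2 interval held 2 anti-GFP peaks and 0 anti-Myb peaks, and 82.8% of all intervals of its length on chromosome 1 held no anti-Myb peak either. None of the 7 peaks overlapped a peak of the other list, and over the whole lists only 8.28% of anti-GFP and 17.8% of anti-Myb peaks did.

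**Figure D1:**
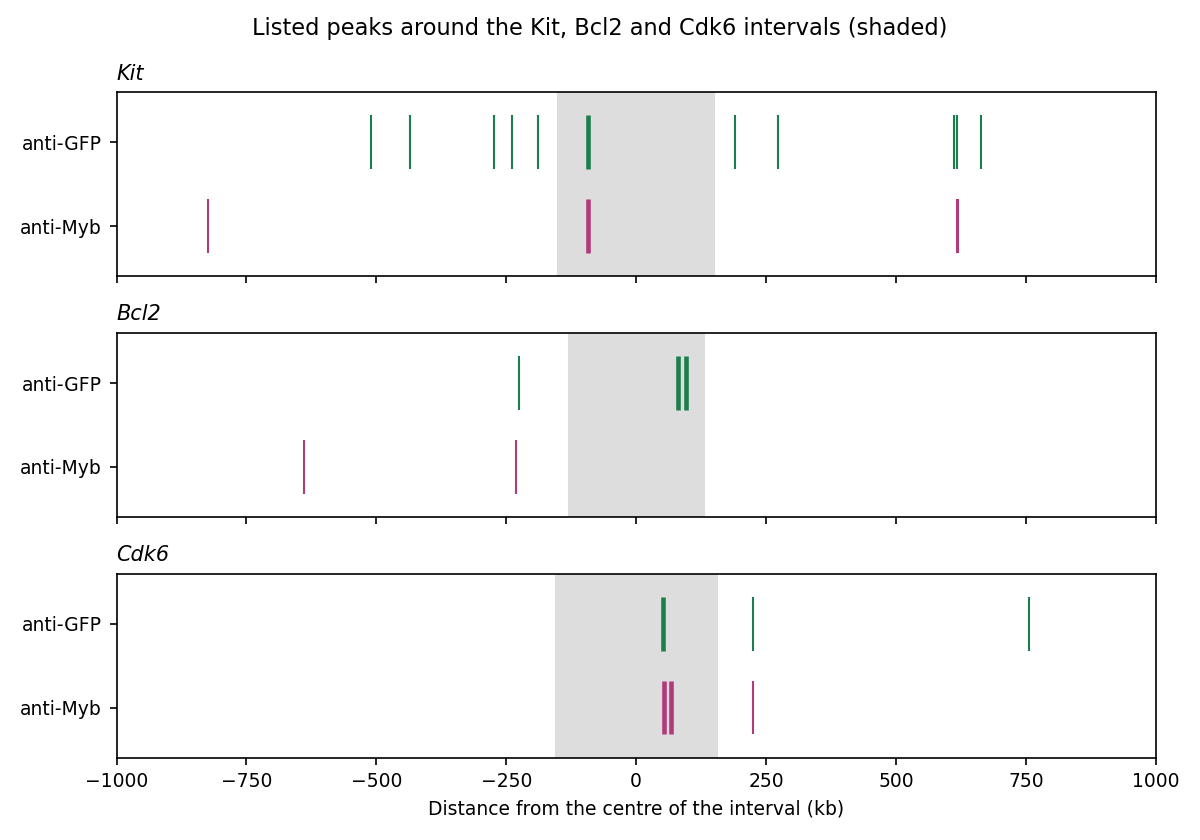
Listed peaks (vertical lines) by distance in kb from the centre of the Kit, Bcl2 and Cdk6 intervals (shaded), with the anti-GFP and the anti-Myb list as separate rows and members drawn thicker. Kit and Cdk6 have lines of both lists at almost one place, while the shaded Bcl2 interval has 2 anti-GFP lines and no anti-Myb line.

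At Kit, the anti-GFP peak was at chr5:75857105-75857441, row 698 of its list. The anti-Myb peak was at chr5:75856638-75856950, row 1409 of its list. The anti-Myb peak therefore lay on the side of lower coordinates, with 154 bp between the peaks and 479 bp between the centres. These peaks stood 57.3 kb and 56.8 kb into the interval, and the remaining 243 kb up to its end held no peak of either list. The anti-GFP list had more peaks just outside: the nearest were chr5:75760111-75760447 (row 5024), 39.7 kb below the interval, and chr5:76140449-76140785 (row 4068), 40.6 kb above it. Neither has an anti-Myb peak nearer than the Kit one. With 50 kb and 100 kb added on each side, the interval held 3 and 4 anti-GFP peaks and still 1 anti-Myb peak. The nearest anti-Myb peaks outside were much farther, at chr5:75125383-75125695 (row 2356), 674 kb below, and chr5:76567347-76567659 (row 2722), 468 kb above. The latter overlapped an anti-GFP peak by 267 bp.

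Within 1 Mb on either side of the Kit interval there were 12 anti-GFP and 3 anti-Myb peaks, or 6.0 and 1.5 per Mb. Within 5 Mb on either side there were 30 and 10, or 3 and 1 per Mb. Over chromosome 5, where the peaks of both lists span 149 Mb, the densities were 3.07 and 1.52 per Mb, and inside the interval they were 3.33 in each list. The protein-coding genes next to Kit in the RefSeq order of GRCm38 are Gsx2 and Pdgfra below and Kdr and Srd5a3 above. Pdgfra and Kdr encode receptor tyrosine kinases too, for platelet-derived growth factor and for vascular endothelial growth factor. Which of the peaks outside the interval lie in which of these genes was not determined.

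To show how common such counts are, every interval of the same length on the same chromosome was counted, placed every 10 kb between the outermost peaks of both lists. No interval was removed for holding member peaks, though at Cdk6 few of the placed intervals hold them. Of 14874 intervals of the Kit length, 35.9% held at least 1 anti-GFP peak and 24.5% at least 1 anti-Myb peak. A peak of both lists was held by 21.3%, and an anti-Myb peak within 500 bp of an anti-GFP peak, overlaps included, by 12.1%. The latter share was not planned and was counted for Kit and Cdk6 only, where such pairs were seen. A single peak was the most frequent count after 0 in both lists. Restricted to intervals within 10 Mb of Kit, the shares with an anti-GFP and an anti-Myb peak were 24.99% and 13.6%. These intervals were not limited to ones with a gene, since none could be marked on mm9.

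At Bcl2, both peaks came from the anti-GFP list. The first was at chr1:108610999-108611335, row 2944, and the second at chr1:108625303-108625639, row 7043. Their centres were 14.3 kb apart, and 26.8% of the anti-GFP list had a neighbour of the same list at least as near. Both stood toward the upper end of the interval, 211 kb and 225 kb from its lower end and 48.8 kb and 34.5 kb from its upper end. The lower 211 kb held no peak of either list. The nearest anti-Myb peak, at chr1:108297753-108298065 (row 457), was outside the interval, 313 kb and 328 kb from the centres of the 2 Bcl2 peaks. An anti-GFP peak at chr1:108304228-108304564 (row 2399) lay 6.49 kb from that anti-Myb peak.

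On the scale of 5 Mb, the stretch around Bcl2 was sparse in both lists. Above the interval the next anti-GFP peak, chr1:110312094-110312430 (row 4650), was 1652 kb away, and the next anti-Myb peak, chr1:120375736-120376048 (row 2946), was 11716 kb away. Within 5 Mb on either side there were 3 anti-GFP and 2 anti-Myb peaks, or 0.300 and 0.200 per Mb. Within 1 Mb on either side there were 1 anti-GFP and 2 anti-Myb peaks, or 0.5 and 1 per Mb. Inside the interval the anti-GFP density was 7.69 per Mb, and over chromosome 1 the anti-GFP and anti-Myb densities were 2.58 and 1.05 per Mb. The protein-coding neighbours of Bcl2 are Zcchc2 and Phlpp1 below and Kdsr and Vps4b above.

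Of 19050 intervals of the Bcl2 length on chromosome 1, 29.9% held at least 1 and 17.6% at least 2 anti-GFP peaks. At least 1 anti-Myb peak was held by 17.2% and a peak of both lists by 14.3%. An interval with 0 anti-Myb peaks was therefore the usual case, at 82.8%. The combination seen at Bcl2, 2 or more anti-GFP peaks with no anti-Myb peak, was found in 7.24% of the intervals. This share was not planned and was counted for Bcl2 only, to match what was seen there. Within 10 Mb of Bcl2 only 7.25% of the intervals held an anti-GFP peak and 3.90% an anti-Myb peak. The former share includes intervals that hold the Bcl2 peaks themselves. The absence of an anti-Myb peak says only that none passed the authors' threshold in 1 library. When the interval was narrowed by 50 kb on each side, it held 0 peaks, because both peaks lie within 50 kb of its upper end.

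At Cdk6, the anti-GFP peak was at chr5:3497177-3497513, row 15 of its list. An anti-Myb peak, chr5:3497519-3497831 (row 1491), began 5 bp after it, with 330 bp between the centres. The other anti-Myb peak, chr5:3512581-3512893 (row 1166), was 15.4 kb from the centre of the anti-GFP peak and 15.1 kb from the first anti-Myb peak. A neighbour of the same list at least as near was found for 27.8% of the anti-Myb list. The anti-GFP peak was the first of chromosome 5 by position and also by row among its 457 anti-GFP peaks, and its running number in the authors' peak names was 1. The interval begins 207 kb before this peak, so its lower part lies before the first peak that either list has on this chromosome.

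**Figure D2:**
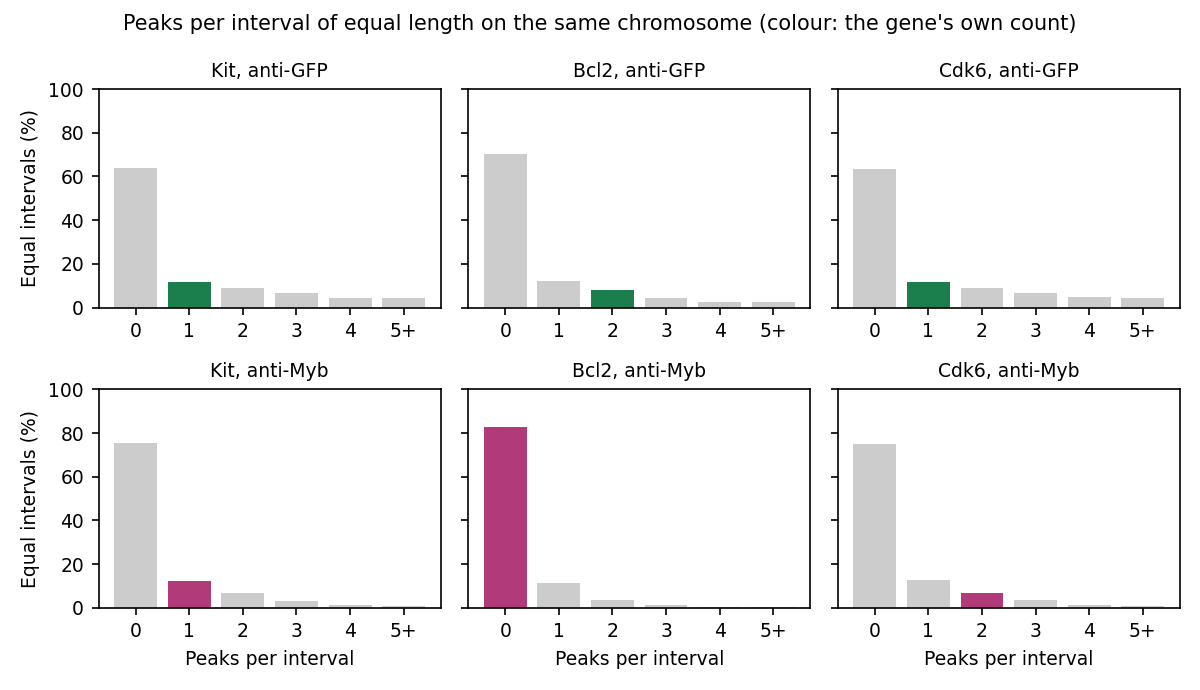
Share of equal intervals on the same chromosome (y axis, %) by the number of peaks they hold (x axis), for each gene's interval length and each list, with the bar of the gene's own count in colour. Empty intervals are the largest class in all 6 panels, and Bcl2 falls in that class for the anti-Myb list.

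A second adjacent pair lay just outside the Cdk6 interval. The anti-GFP peak chr5:3669807-3670143 (row 6049) and the anti-Myb peak chr5:3670308-3670620 (row 2585) were 164 bp apart, about 70 kb above its end. With 100 kb added on each side the interval held 2 anti-GFP and 3 anti-Myb peaks. The next 5 Mb above the interval held 2 anti-GFP peaks and 1 anti-Myb peak, these included, or 0.400 and 0.200 per Mb. All of them lay in the first 1 Mb, where the densities were 2 and 1 per Mb. Inside the interval the densities were 3.23 and 6.45 per Mb, which stand for only 1 and 2 peaks. Over chromosome 5 they were 3.07 and 1.52 per Mb. The protein-coding genes above Cdk6 are Fam133b and 1700109H08Rik, and those below it carry provisional names, LOC620639 and LOC545763.

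Of 14873 intervals of the Cdk6 length on chromosome 5, 36.4% held at least 1 anti-GFP peak, 25.1% at least 1 anti-Myb peak and 12.5% at least 2 anti-Myb peaks. A peak of both lists was held by 21.8%, and an anti-Myb peak within 500 bp of an anti-GFP peak by 12.5%. No interval was placed before the first listed peak of the chromosome. The Cdk6 interval's own position was therefore not counted, and few intervals held its peaks. With the first interval at the start of the Cdk6 interval, 36.5% held an anti-GFP and 25.1% an anti-Myb peak. Within 10 Mb of Cdk6 the shares with an anti-GFP and an anti-Myb peak were 8.16% and 5.00%. They come only from intervals that start at or above that first peak, while the shares around Kit and Bcl2 cover both sides.

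Partners in the other list were counted next. By an overlap of at least 1 bp, 0 of the 4 anti-GFP and 0 of the 3 anti-Myb peaks had one. The members are few and share loci, so no binomial interval is given for them. Over the whole lists the shares were 8.28% of anti-GFP peaks (7.66% to 8.94%) and 17.8% of anti-Myb peaks (16.5% to 19.1%). With a gap of up to 500 bp allowed, 2 of the 4 and 2 of the 3 had a partner, namely the Kit and the Cdk6 pair, against 15.0% and 31.7% over the lists. No test was made of these differences, since 7 peaks at 3 loci are too few and share loci. The binomial intervals of the whole lists cover the counting of peaks only.

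The Kit and Cdk6 pairs belong to a class of 475 anti-Myb peaks, 13.9% of that list, that lie beside an anti-GFP peak without overlap and within 500 bp. This class was not planned and takes its definition from such pairs, so their places within it are description only. The median gap of the class was 154 bp, the same as at Kit. The 5 bp gap at Cdk6 was among its 11 shortest. In the class the anti-Myb peak lay at higher coordinates in 238 cases, as at Cdk6, and at lower coordinates in 237, as at Kit. By centre distance, 11.6% of the anti-GFP list had an anti-Myb centre at least as near as Kit has, and 8.43% as near as Cdk6. For the Bcl2 peaks the values were 81.3% and 82.2%, so most anti-GFP peaks had an anti-Myb peak nearer than these do.

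**Figure D3:**
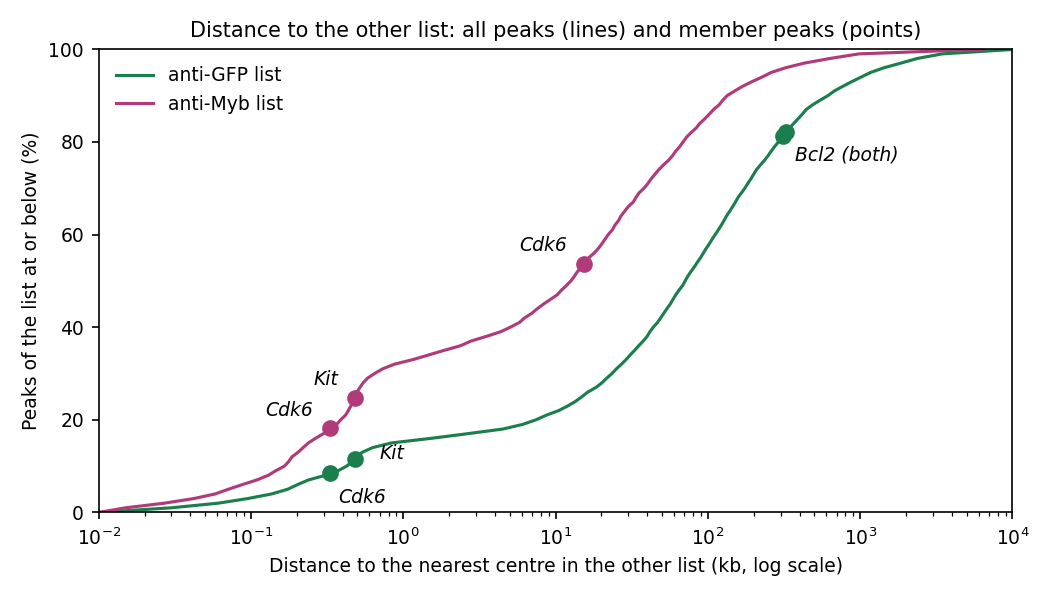
Cumulative share of each list (y axis, %) by distance to the nearest centre in the other list (x axis, kb, log scale), with the member peaks as points. Kit and Cdk6 lie below 1 kb in both lists apart from the second Cdk6 anti-Myb peak at 15.4 kb, and the 2 Bcl2 peaks lie above 300 kb.

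The row order of the files is the only order available, and the files do not say what it stands for. In the anti-GFP list the Cdk6 peak stood 0.205% of the way down, the Kit peak 9.53%, and the Bcl2 peaks 40.2% and 96.1%. Cdk6 and Kit were thus in the first 10% of the rows, a line drawn after the values were seen. On chromosome 5, 9.25% of intervals of the Kit length and 9.52% of intervals of the Cdk6 length held an anti-GFP peak of the first 10%. In the anti-Myb list the 3 members stood close together in the middle, the Cdk6 peaks at 34.2% and 43.7% and the Kit peak at 41.3%. None of the 3 was in the first 10% of the anti-Myb rows.

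**Figure D4:**
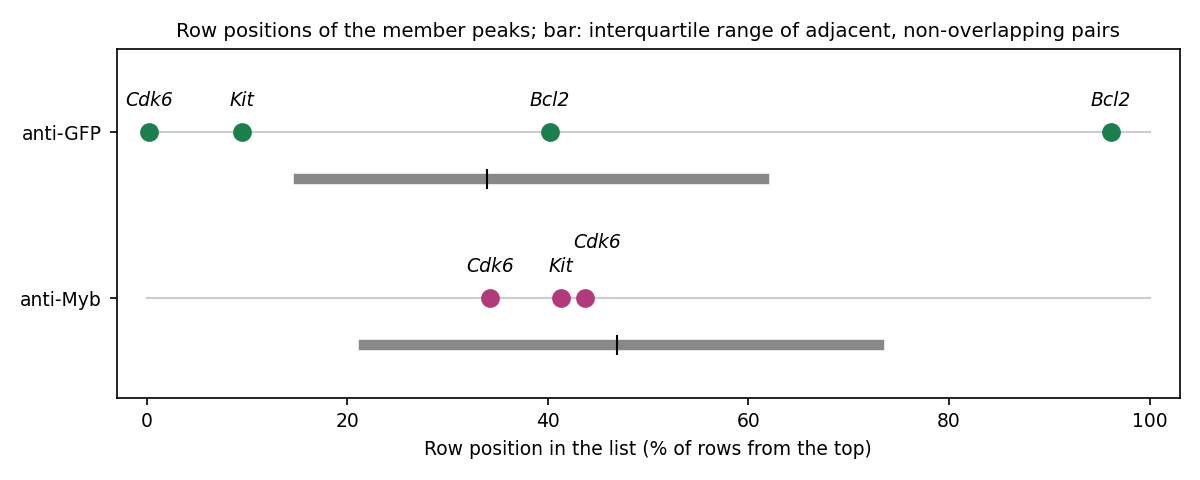
Row position of each member peak in its list (x axis, % of rows from the top), with a grey bar for the interquartile range and a tick for the median of the 475 adjacent, non-overlapping pairs. The anti-GFP points are spread from Cdk6 at 0.205% to Bcl2 at 96.1%, and the 3 anti-Myb points lie between 34.2% and 43.7%.

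Among the 475 adjacent pairs, the median anti-GFP position was 33.9% (interquartile range 15.2% to 61.6%) and the median anti-Myb position 46.9% (21.7% to 73.0%). The anti-GFP row of Cdk6 was 1 of the 2 earliest in this class, and 89 of the pairs had an anti-GFP row as early as that of Kit. Both anti-Myb peaks of these pairs stood inside the interquartile range.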

How the data were processed

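CUT&RUN libraries of MEL cells were grouped by their titles, 1 library per group. Per the submitters' processing notes, the build was mm9 and the tools included HOMER 4.10.3, STAR 2.7.9a, deepTools 3.4.2, Picard 2.17.11, Trim Galore 0.6.6 and SAMtools 1.11. What each did, the threshold for a peak, and how duplicates and controls entered were not given in the sources used here. The highest running numbers in the peak names, summed over chromosomes, were 40213 for anti-GFP and 11005 for anti-Myb. These exceed the 7327 and 3410 listed peaks, and what the unlisted numbers stood for was not given. Raising the threshold could remove members. The deposited score was 1 in every row of both lists and was not used. Depth per library is unknown.

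Peaks were taken by centre. Coordinates are 1-based. Every equal interval at 10 kb steps was counted in place of random ones, so that nothing was resampled. Partners were counted with pandas 2.3.3, NumPy 2.4.6 and SciPy 1.17.1 under Python 3.11.15, checked on simulated lists and with bedtools 2.31.1, which gave the same 607 overlaps. Named were all member peaks, their nearest peaks in the other list, the nearest peaks outside each interval and neighbouring genes, limited afterwards to protein-coding ones. The gene lists planned for Kit signalling, the BCL2 family and CDK6 partners need an mm9 annotation and were not run. The members and the lists were chosen with earlier results of these data known. Interval size, row cutoff, partner definition and the placing of equal intervals were varied.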

Additional observations from a re-analysis of the deposited data

How the results depend on the processing

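The first 10% of rows, and the alternative that starts the equal intervals at the start of the Cdk6 interval, were chosen after the data were seen. The class of adjacent, non-overlapping pairs and the interval share for the Bcl2 combination were not planned. Nor was the share of intervals with an anti-Myb peak within 500 bp of an anti-GFP peak. Of 36 recounts of the peaks per interval, 31 stayed within 1.5 times. The exceptions by this rule were all in the anti-GFP list: Kit held 3 peaks when widened by 50 kb on each side and 4 when widened by 100 kb, Cdk6 held 2 when widened by 100 kb, and Bcl2 held 0 when narrowed by 50 kb and 1 in the first 50% of the list. The rule passes a change from 2 to 3, seen for Bcl2 anti-GFP and Cdk6 anti-Myb peaks when widened by 100 kb. Some recounts could not move, such as counting peaks within 10 kb once, since members of the same list lay farther apart. With a gap of up to 500 bp, or centres within 1 kb or 10 kb, 2 anti-GFP and 2 anti-Myb members had a partner; with centres within 100 bp, or overlap of 50% of the shorter peak, 0 had one. The share of equal intervals with an anti-GFP or anti-Myb peak moved only when intervals within 10 Mb of the gene were used. The shares were then 24.99% and 13.6% for Kit, 7.25% and 3.90% for Bcl2, and 8.16% and 5.00% for Cdk6. Those for Cdk6 come only from intervals that start at or above the first listed peak of the chromosome. The other 20 of 26 stayed within the binomial interval. Those that only placed the intervals differently on the same chromosome recount the same peaks, so they could hardly move. The 7 row positions were similar among rows of the same chromosome. No paired analysis was possible because each antibody has 1 library and no result comes from a test. Without read counts, an interval with no peak is not shown to be unbound.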
